A study of Mus musculus with 12 samples.

Results

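The interferon-stimulated antiviral genes described here are 54 mouse genes given by symbol, from the IFIT, OAS, MX, Schlafen, PARP, TRIM and IFI200 families and the ISG15 system. All 54 symbols had 1 row each among the 54532 genes measured, and all 54 passed the filter for testing, which asked for 1 FPKM or more in 3 or more of the 12 libraries and left 11335 genes. FPKM is the number of fragments per kilobase of exon, scaled per library. RNA sequencing was done on 4 groups of 3 libraries from wild-type (WT) mouse bone marrow. Marrow cells were expanded with CMG, a source of the macrophage growth factor M-CSF, and kept at 2% CMG. Untreated macrophages received no RANKL, and osteoclasts were made from such macrophages with RANKL, the factor that drives osteoclast formation, listed at 100 ng/mL in the sample sources. On day 5 a group of each cell type received 100 ng/mL lipopolysaccharide (LPS), the main glycolipid on the surface of Gram-negative bacteria, for 3 h, and the other group received none. Mouse strain, sex, age and number of animals are not given, and no label says whether the 3 libraries of a group came from separate animals or cultures, so p-values measure the spread between these libraries.

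Interferon-stimulated genes are the genes that a cell transcribes when type I interferon binds its receptor, and their products bind viral RNA, block viral entry, budding or translation, or amplify the sensing of nucleic acid. The receptor chains Ifnar1 and Ifnar2 act through the kinases Jak1 and Tyk2, and a complex that holds Stat2 and Irf9 binds an element named ISRE in the promoters of these genes. LPS reaches the same genes through its receptor Tlr4, the adaptors Ticam2 and Ticam1, the kinase Tbk1 and the factor Irf3, which induce interferon-beta (Ifnb1). Interferon-beta is also known to restrain osteoclast formation. In bulk samples, fewer cells that express a gene and less RNA per cell cannot be told apart.

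Reads recovered from the FPKM values numbered between 15279775 and 19790304 per library. The 10 osteoclast markers summed to between 16.3 and 29.0 FPKM in the 6 macrophage libraries and to between 29220 and 32220 FPKM in the 6 osteoclast libraries. The 8 macrophage markers summed to between 2039.6 and 2511 FPKM in macrophages and to between 1702 and 1804 FPKM in osteoclasts, where Cd68 and Csf1r were high in both, while Mrc1, Cx3cr1 and Fcgr1 were under 4 FPKM in every osteoclast library. Neutrophil, B cell, erythroid and dendritic cell markers each summed to 16.4 FPKM or less in every library. Of 6 T cell markers, Cd3d, Cd3g and Cd8a were at 0 in all 12 libraries, and the sum of 4.04 FPKM or less came mainly from Trac in osteoclasts. Stromal markers summed to between 25.2 and 35.6 FPKM in macrophages, led by Col1a1, and to 0.702 FPKM or less in osteoclasts. The part of other cell types in the differences described below was not tested.

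RefSeq promoter sequences on build GRCm38.p6, the build of the mm10 coordinates, matched 44 of the 54 genes by symbol. Each sequence runs from 250 bases before a transcription start to 50 bases after it. The core of the ISRE was searched as GAAA and GAAA with a pair of any bases between them, on both strands, and a gene counted if any of its annotated starts had a match. It occurred for 22 of the 44 genes, or 50% of them, against 1079 of 27025 genes in the table, or 3.99%. Of 34 matches, 27 began before the start, and over all 34 the median place was 49 bases before it. The GAS element, searched as TTCNNNGAA, occurred for 7 of the 44 (15.9%, against 9.55% of all genes), and the kappaB motif for 8 (18.2%, against 9.55%). The sequences below are shown because they carry the element at genes that range from the most to the least responsive to LPS, with every match in capitals, 5′ to 3′ on the strand of the gene.

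Isg15 (chr4:156200860-156200911, minus strand): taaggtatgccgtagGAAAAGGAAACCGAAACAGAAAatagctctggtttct
Ifit1 (chr19:34640770-34640828, plus strand): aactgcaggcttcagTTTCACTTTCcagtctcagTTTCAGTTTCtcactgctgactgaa
Ifit3 (chr19:34583358-34583431, plus strand): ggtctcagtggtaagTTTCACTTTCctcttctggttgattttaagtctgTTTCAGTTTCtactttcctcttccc
Ifit3b (chr19:34607754-34607827, plus strand): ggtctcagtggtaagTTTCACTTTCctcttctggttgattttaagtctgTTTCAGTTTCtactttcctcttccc
Rsad2 (chr12:26456548-26456587, minus strand): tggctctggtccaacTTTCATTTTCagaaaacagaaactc
Bst2 (chr8:71537572-71537617, minus strand): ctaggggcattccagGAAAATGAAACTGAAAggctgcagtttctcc
Ifi205 (chr1:174031865-174031904, minus strand): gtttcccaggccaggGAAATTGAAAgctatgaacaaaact
Ifi211 (chr1:173913059-173913098, minus strand): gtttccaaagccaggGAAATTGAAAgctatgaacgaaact
Ifi207 (chr1:173741826-173741865, minus strand): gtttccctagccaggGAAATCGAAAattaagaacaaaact

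Isg15 had 3 overlapping matches, the first beginning 78 bases before the start. The windows of Ifit3 and Ifit3b had the same letter at all 74 positions. Those of Ifi205 and Ifi211 had the same letter at 37 of 40 positions, and those of Ifi205 and Ifi207 at 34 of 40. Genes with equally clear matches differed widely in their response: Bst2 had 2 overlapping matches and the smallest LPS difference of the 54 in macrophages, while Cmpk2, Oasl1 and Ifit2 had none in the window and were among the most responsive. Over the 22 genes with a match the median log2 difference with LPS was 4.05 in macrophages and 2.18 in osteoclasts, and over the 22 without it was 3.54 and 1.21. A match describes letters and is not evidence of a bound site.

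The genes lie on 15 chromosomes, and 30 of the 54 fall into 9 groups of neighbours with gaps of at most 200 kb on GRCm38. The largest is the IFI200 cluster at chr1:173630917-174031810 with Ifi209, Ifi207, Ifi204, Mndal, Ifi211, Ifi203 and Ifi205. The IFIT genes lie at chr19:34550694-34650009, the Oas2, Oas3, Oas1g and Oas1a genes at chr5:120730333-120907521, the Schlafen genes at chr11:82951349-83122670, and the divergent pair Rsad2 and Cmpk2 at chr12:26442746-26479837. Exons of Oasl1, Usp18, Dhx58, Slfn5, Eif2ak2, Znfx1, Ifi35 and Adar overlap exons of another gene on the opposite strand, and 13 of the 54 genes, Herc6, Rtp4, Adar and Phf11b among them, share over 10% of their 75-base words with other genes, so their values are uncertain to that extent.

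LPS was compared with no LPS in macrophages to ask which of these genes respond in the cell type that osteoclasts are made from. All 54 genes were higher with LPS in macrophages by limma at an adjusted p under 0.05, but Bst2 turned to -0.040 after rescaling to TPM and to -0.22 after quantile normalization. Herc6, Isg20, Mx2, Ifi205, Slfn1 and Ifi44 were under 1 FPKM in all 6 untreated libraries, so they passed the filter only through LPS-treated libraries and had to differ. Of the other 48 genes, 48 were called higher in macrophages. For all 54, in the deposited FPKM, the lowest LPS-treated library was above the highest untreated one. Among all genes tested, 36.8% were called higher and 33.1% lower in this comparison, and 38.8% were higher with no overlap. The median log2 difference over the 54, on the log2(FPKM + 1) scale, was 3.72, from 0.61 for Bst2 to 9.69 for Ifit1, beside a median of 0.02 over all genes tested. As ratios of group means the folds ran from 1.53 to 1735 with a median of 16.9, and 37 genes rose at least 10-fold and 12 at least 100-fold. Rescaling to TPM moved the median of all genes to -0.55 in this comparison, and the quantile method moved it to -0.14.

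In osteoclasts the same treatment raised 52 of the 54 genes, where 11.1% of all genes tested were called higher and 6.59% lower. The genes that were not called were Pml and Bst2. Of the 48 genes that reached 1 FPKM in an untreated library, 46 rose. The median log2 difference over the 54 was 1.85, from -0.069 for Pml to 6.41 for Rsad2, beside 0.01 over all genes tested. Groups did not overlap for 52 of the 54, against 19.0% of all genes higher with no overlap. Folds could be formed for 52 genes, from 0.949 to 543 with a median of 7.71, and 20 rose at least 10-fold and 6 at least 100-fold. Slfn1 and Ms4a4c have no fold here, because untreated osteoclasts held 1 and 3 of their reads over 3 libraries. Limma with voom weights on the recovered whole reads called 53 higher, Bst2 included, where it called 12.9% of all genes higher.

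**Figure D1:**
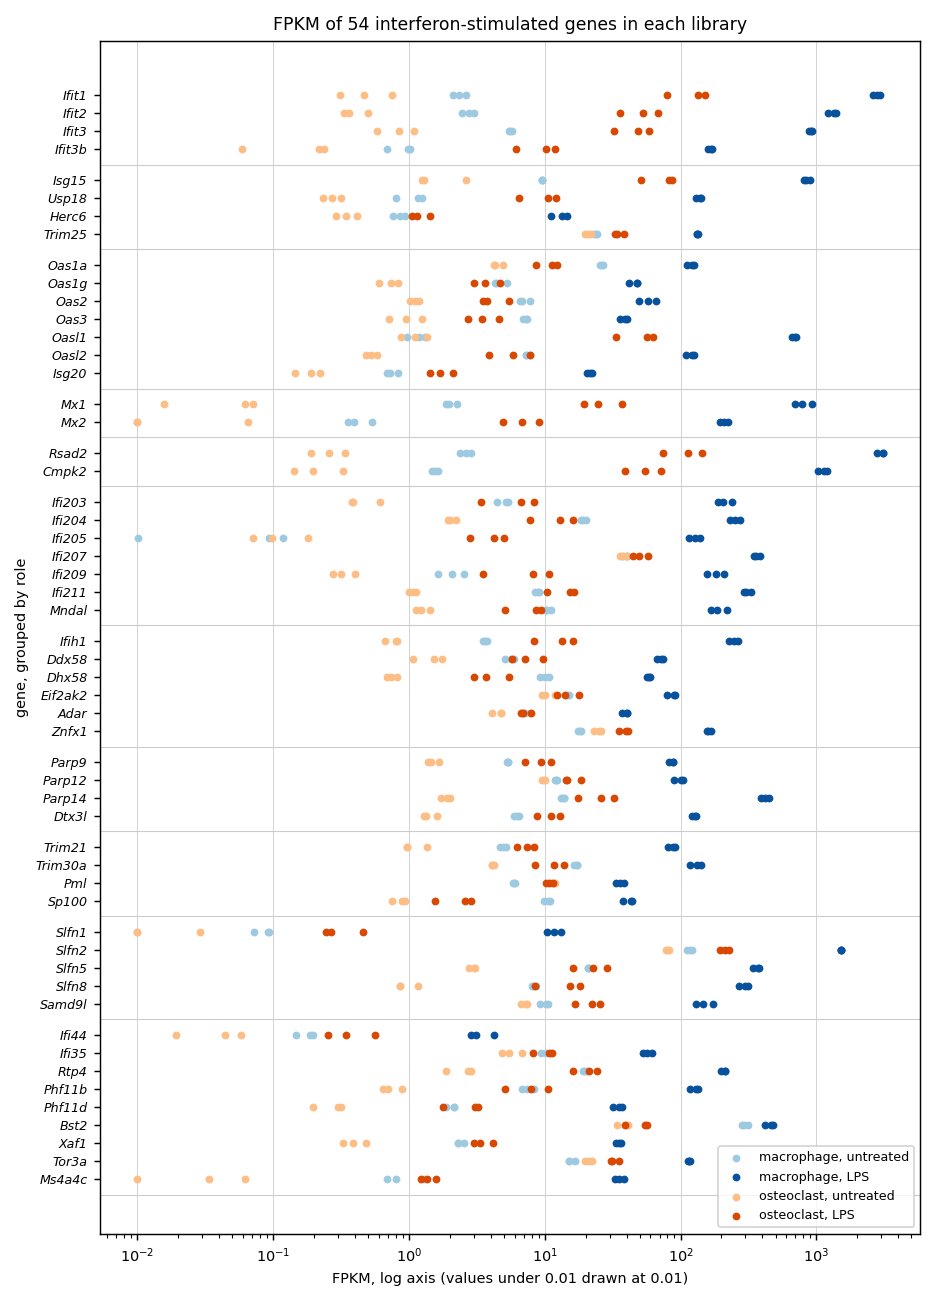
FPKM of each of the 54 genes (log axis, values under 0.01 drawn at 0.01), 1 point per library, with 3 libraries in each of the 4 groups and the genes grouped by role. LPS-treated macrophages stand highest for every gene in these FPKM values (for Bst2, not after rescaling to TPM or quantile normalization), and for most genes LPS-treated osteoclasts reach a level between those of untreated and LPS-treated macrophages.

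The IFIT genes, whose products bind viral RNA and hinder its translation, were low without LPS and rose steeply with it. Ifit1 (chr19:34640871-34650009) stood at 2.62, 2.11 and 2.35 FPKM in untreated macrophages and at 2920.0, 2623 and 2787 FPKM with LPS. Its osteoclast libraries gave 0.755, 0.312 and 0.465 FPKM without LPS and 134, 79.4 and 150.0 FPKM with LPS. No library of Ifit1 overlapped between any pair of these groups, and the LPS-treated osteoclasts passed the untreated macrophages by a wide margin while staying far under the LPS-treated ones. Ifit2 moved in the same way, from 2.99, 2.77 and 2.47 FPKM to 1396, 1227 and 1346 FPKM in macrophages and from 0.497, 0.332 and 0.360 FPKM to 52.9, 35.6 and 68.4 FPKM in osteoclasts. Ifit3b rose from 0.690, 0.978 and 1.01 FPKM to 166, 158 and 170.3 FPKM in macrophages and from 0.217, 0.237 and 0.0588 FPKM to 10.2, 6.13 and 11.9 FPKM in osteoclasts. LPS folds of the 4 genes were 161 to 1177 in macrophages and 55.0 to 237 in osteoclasts. Ifit3 and Ifit3b share 41.1% and 35.7% of their 75-base words with each other, so how reads were split between them is uncertain.

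The ISG15 system attaches the ubiquitin-like protein Isg15 to other proteins, with Herc6 as a ligase and Usp18 as the protease that removes it. Isg15 (chr4:156199424-156200818) was at 9.53, 9.51 and 9.56 FPKM in untreated macrophages and 835, 805 and 893 FPKM with LPS, and at 1.29, 1.25 and 2.65 FPKM in untreated osteoclasts and 81.5, 51.1 and 86.5 FPKM with LPS. Trim25, a ubiquitin ligase that activates the RNA sensor Ddx58, behaved differently. It was at 23.9, 24.1 and 23.2 FPKM in untreated macrophages and almost as high in untreated osteoclasts, at 19.9, 21.1 and 21.9 FPKM, and then reached 132, 131 and 134 FPKM with LPS in macrophages but 33.1, 34.1 and 38.2 FPKM in osteoclasts. The log2 LPS difference of Trim25 was 2.43 ± 0.05 (SE, limma adjusted p = 1.92e-12) in macrophages and 0.72 ± 0.05 (adjusted p = 1.51e-06) in osteoclasts. Usp18 rose 127-fold and 35.5-fold, and Herc6 15.3-fold and 3.45-fold.

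OAS proteins make 2-5A, the messenger that switches on the RNA-cutting enzyme RNase L, and Isg20 is an RNA exonuclease. Oas1a (chr5:120896256-120907521) had the highest untreated level of the group, 25.4, 27.0 and 26.3 FPKM in macrophages and 4.23, 4.27 and 4.96 FPKM in osteoclasts, and reached 121, 112 and 125 FPKM with LPS in macrophages and 11.4, 8.67 and 12.3 FPKM with LPS in osteoclasts. It shares 47.6% of its 75-base words with Oas1g, so the values of both are uncertain. Oas3 went from 6.87, 7.42 and 7.32 FPKM to 38.9, 35.5 and 40.2 FPKM in macrophages and from 0.950, 1.24 and 0.716 FPKM to 3.45, 2.73 and 4.57 FPKM in osteoclasts. Oasl1, a family member without synthetase activity that is known to restrain the translation of Irf7, stood apart from the other 6. Without LPS it was at 1.19, 0.962 and 1.31 FPKM in macrophages and 0.873, 1.11 and 1.35 FPKM in osteoclasts, ranges that overlap. With LPS it was at 697, 657 and 706 FPKM in macrophages and 56.5, 33.6 and 63.1 FPKM in osteoclasts, a rise of 595-fold against 45.9-fold. LPS folds of the other 6 were 4.55 to 28.7 in macrophages and 2.40 to 11 in osteoclasts.

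MX proteins are GTPases that trap viral nucleocapsids. The annotation lists Mx2 as a polymorphic pseudogene, and whether the RNA of either MX gene gives a working protein was not tested. Mx1 (chr16:97447035-97462907) was at 1.96, 1.87 and 2.25 FPKM in untreated macrophages and 921, 691 and 781 FPKM with LPS. In untreated osteoclasts it gave 0.0716, 0.0156 and 0.0622 FPKM, from 10 reads over 3 libraries, and with LPS 24.6, 19.5 and 37.0 FPKM. Mx2 was at 0.394, 0.353 and 0.534 FPKM without LPS and 223, 194 and 207 FPKM with LPS in macrophages, and at 0, 0.0655 and 0 FPKM without LPS and 6.79, 4.95 and 8.99 FPKM with LPS in osteoclasts, where the untreated value came from 4 reads in 1 library. Both genes were thus close to absent from untreated osteoclasts and clearly present after 3 h of LPS, and with so few reads the size of the osteoclast fold is loosely set.

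Rsad2 encodes viperin, an enzyme that makes a chain-terminating nucleotide, and its neighbour Cmpk2 encodes a nucleotide kinase. Rsad2 (chr12:26442746-26456452) had the highest LPS level of the 54 in macrophages, at 3084, 2804 and 3098 FPKM from 2.65, 2.38 and 2.85 FPKM, and in osteoclasts it rose from 0.337, 0.191 and 0.258 FPKM to 113, 74.3 and 143 FPKM. Cmpk2 reached 1187, 1022 and 1143 FPKM from 1.55, 1.47 and 1.63 FPKM in macrophages and 55.0, 39.1 and 72.1 FPKM from 0.195, 0.142 and 0.325 FPKM in osteoclasts. The neighbours had fold rises of 1140.4 and 720.1 in macrophages and of 420.1 and 251 in osteoclasts.

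IFI200 proteins carry DNA-binding HIN domains, and several are sensors of cytosolic DNA or regulators of transcription. Ifi205 and Ifi207, which lie in the same cluster, had very different untreated levels. Ifi207 (chr1:173723427-173741747) was at 37.8, 40.4 and 40.2 FPKM in untreated macrophages and 39.4, 37.1 and 36.1 FPKM in untreated osteoclasts, so that the libraries overlapped, and at 383, 349.5 and 358 FPKM with LPS in macrophages and 49.0, 44.4 and 57.9 FPKM with LPS in osteoclasts. Ifi205 (chr1:174011998-174031810) was at 0.0930, 0.0102 and 0.118 FPKM in untreated macrophages and 0.182, 0.0708 and 0.0986 FPKM in untreated osteoclasts, also overlapping, and at 139.7, 116 and 128 FPKM with LPS in macrophages and 4.26, 2.80 and 4.98 FPKM with LPS in osteoclasts. Unlike these, Ifi211 was already lower in untreated osteoclasts, at 1.00, 1.06 and 1.12 FPKM against 9.04, 8.41 and 8.91 FPKM in macrophages, and reached 15.4, 10.4 and 16.4 FPKM with LPS in osteoclasts and 330.3, 294 and 302 FPKM with LPS in macrophages. The fold of Ifi205 in macrophages, 1735, was the highest of the 54, rests on 21 reads in the untreated libraries, and belongs to a gene that passed the filter only through LPS-treated libraries. Among the IFI200 genes, Ifi211, Ifi209, Ifi205, Ifi204 and Mndal share between 11.1% and 63.6% of their words with other genes, which makes their values uncertain. The medians of the 7 log2 LPS differences were 4.98 in macrophages and 2.14 in osteoclasts.

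Among the proteins that sense or act on RNA, Ifih1 (MDA5), Ddx58 (RIG-I) and Dhx58 detect viral RNA, Eif2ak2 (PKR) halts translation, Adar edits double-stranded RNA and Znfx1 is a helicase that binds viral RNA. Ifih1 (chr2:62595798-62646255) was at 3.78, 3.52 and 3.61 FPKM without LPS and 264, 226 and 247 FPKM with LPS in macrophages and at 0.670, 0.804 and 0.814 FPKM without LPS and 13.4, 8.28 and 16.2 FPKM with LPS in osteoclasts. Znfx1 was higher in untreated osteoclasts, at 23.2, 24.9 and 25.9 FPKM, than in untreated macrophages, at 18.4, 17.6 and 18.3 FPKM, but reached 168, 156 and 159.5 FPKM with LPS in macrophages and 35.2, 39.3 and 41.0 FPKM in osteoclasts. The sensors Ifih1, Ddx58 and Dhx58 rose 16.5-fold, 5.19-fold and 5.42-fold in osteoclasts, and Znfx1, Adar and Eif2ak2, which had higher untreated levels there, rose 1.56-fold, 1.58-fold and 1.41-fold. Dhx58 was at 9.99, 9.25 and 10.7 FPKM without LPS and 60.0, 56.1 and 58.4 FPKM with LPS in macrophages and at 0.811, 0.687 and 0.737 FPKM without LPS and 3.70, 2.99 and 5.43 FPKM with LPS in osteoclasts, folds of 5.83 and 5.42. The Eif2ak2 call in osteoclasts (log2 difference 0.45, adjusted p = 0.0174 by limma) was lost without untreated osteoclast replicate 1 or 2.

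Parp9, Parp12 and Parp14 belong to the family of ADP-ribosyltransferases, and Dtx3l is the ubiquitin ligase that pairs with Parp9. Parp14 (chr16:35832874-35871544) was at 13.9, 13.8 and 13.3 FPKM without LPS and 445, 393 and 417 FPKM with LPS in macrophages and at 2.00, 1.91 and 1.72 FPKM without LPS and 26.0, 17.5 and 32.2 FPKM with LPS in osteoclasts. Dtx3l was at 6.47, 5.93 and 6.27 FPKM without LPS and 129.9, 121 and 127 FPKM with LPS in macrophages and at 1.62, 1.29 and 1.34 FPKM without LPS and 11.2, 8.82 and 12.9 FPKM with LPS in osteoclasts. Dtx3l and Parp9 overlap on opposite strands by 458 exon bases, and whether reads were counted by strand is unknown, so part of their reads cannot be told apart. Parp12 differed from the other 3 in its small osteoclast rise of 1.61-fold, against 6.15-fold to 13.5-fold.

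Trim21 is a cytosolic antibody receptor, Trim30a dampens inflammatory signalling, and Pml and Sp100 build the nuclear bodies that silence incoming viral DNA. Trim30a (chr7:104409025-104465193) was at 17.1, 17.3 and 16.5 FPKM without LPS and 142, 118 and 133 FPKM with LPS in macrophages and at 4.22, 4.10 and 4.06 FPKM without LPS and 11.7, 8.47 and 13.9 FPKM with LPS in osteoclasts. Trim21 was at 5.18, 4.94 and 4.72 FPKM without LPS and 91.6, 81.2 and 88.1 FPKM with LPS in macrophages and at 1.36, 0.972 and 0.966 FPKM without LPS and 7.45, 6.29 and 8.26 FPKM with LPS in osteoclasts. For both genes the LPS-treated osteoclast libraries stayed near the untreated macrophage libraries, below them for Trim30a and above them for Trim21. Pml (chr9:58218076-58249786) was the gene least moved by LPS in osteoclasts. It stood at 10.9, 11.8 and 11.4 FPKM without LPS and 10.2, 10.7 and 11.4 FPKM with it in osteoclasts, a log2 difference of -0.069 ± 0.06 (SE, limma adjusted p = 0.46), whereas in macrophages it rose from 6.02, 5.96 and 5.79 FPKM to 38.5, 33.4 and 36.0 FPKM. Its partner Sp100 had the opposite balance between the cell types without LPS: untreated osteoclasts held 0.939, 0.893 and 0.748 FPKM against 10.8, 9.92 and 10.6 FPKM in untreated macrophages, and LPS raised it to 2.59, 1.55 and 2.86 FPKM in osteoclasts and 44.2, 37.7 and 43.2 FPKM in macrophages.

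The Schlafen genes include regulators of transfer RNA and of cell quiescence, and Samd9l is a restrictor of translation. Slfn2 (chr11:83065112-83070678) was at 118, 122 and 112 FPKM without LPS and 1518, 1504 and 1512 FPKM with LPS in macrophages and at 81.5, 81.3 and 78.2 FPKM without LPS and 228, 196 and 214 FPKM with LPS in osteoclasts, the highest osteoclast level of the 54. Slfn5 was at 20.9, 20.8 and 21.0 FPKM without LPS and 376, 343 and 372 FPKM with LPS in macrophages and at 3.05, 2.76 and 2.99 FPKM without LPS and 22.7, 16.1 and 28.9 FPKM with LPS in osteoclasts. Slfn5 was thus far lower in untreated osteoclasts than in untreated macrophages and Slfn2 little lower, while their macrophage folds were 17.4 and 12.9. Slfn1 reached 1 FPKM in LPS-treated macrophages alone (13.1, 10.4 and 11.6 FPKM), as did Ifi44 (4.22, 2.85 and 3.13 FPKM).

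The remaining 9 genes include Bst2 (tetherin), which holds budding virus at the cell surface, Rtp4, a chaperone of membrane receptors, and Tor3a, an ATPase of the endoplasmic reticulum. Bst2 (chr8:71534255-71537456) was high in macrophages before any LPS, at 292, 314 and 284 FPKM, and reached 421, 475 and 461 FPKM. In osteoclasts it was at 41.1, 39.6 and 34.1 FPKM without LPS and 56.6, 39.1 and 54.8 FPKM with it, where the libraries overlapped and the log2 difference was 0.37 ± 0.12 (SE, limma adjusted p = 0.0561). Without LPS-treated osteoclast replicate 2 the Bst2 difference was 0.54 and was called. Rtp4 rose from 20.3, 19.1 and 19.6 FPKM to 211, 199.9 and 214 FPKM in macrophages and from 2.87, 1.86 and 2.71 FPKM to 21.2, 16.0 and 24.4 FPKM in osteoclasts, folds of 10.6 and 8.29. Tor3a was higher in untreated osteoclasts, at 21.1, 22.1 and 19.9 FPKM, than in untreated macrophages, at 14.98, 16.8 and 15.2 FPKM, and with LPS it was at 30.8, 31.1 and 35.3 FPKM in osteoclasts and 115, 113 and 118 FPKM in macrophages. The osteoclast call of Ifi44 (log2 difference 0.41, adjusted p = 0.0268 by limma) was lost without any 1 of the untreated osteoclast libraries and without LPS-treated osteoclast replicate 1 or 3.

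Whether LPS moved the genes by different amounts in the 2 cell types was tested by the interaction, the log2 LPS difference in osteoclasts minus that in macrophages. It was below 0 and called for 53 of the 54 genes, against 30.0% of all genes tested below 0, with a median of -2.12 beside -0.01 over all genes. Without the 6 genes that passed the filter only through LPS-treated libraries it was called for 47 of 48, with a median of -2.03. Bst2 was not called, at -0.24 ± 0.17 (SE, limma adjusted p = 0.257). The lowest value was that of Ifi205, -4.76 ± 0.19, followed by Mx2, Oasl1, Ifit1 and Ifit3b, of which Ifi205 and Mx2 are among those 6. This size depends on the scale, since adding 1 FPKM compresses the rise of genes that are near 0 in untreated osteoclasts. Voom on the recovered reads called 38 of the 54 below 0, where 28.4% of all genes were called below 0, and left 16 uncalled, with a median of -1.49. As plain ratios of folds, 51 of the 52 genes with both folds had the smaller fold in osteoclasts, with a median of -1.46 on the log2 scale, and Mx1 alone had the larger, at 0.46. After rescaling to TPM, 7 of the 52 had the larger fold in osteoclasts, which were Mx1, Dhx58, Bst2, Rtp4, Oas3, Oasl2 and Sp100. In the log2(FPKM + 1) fit, rescaling to TPM left 47 called below 0 with a median of -1.34, turned Dhx58 (0.035), Rtp4 (0.076) and Bst2 (0.34) above 0, and moved the median of all genes to 0.51. After that rescaling the interaction was called in either direction for 8747 of all 11335 genes tested, against 6413 without it.

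**Figure D2:**
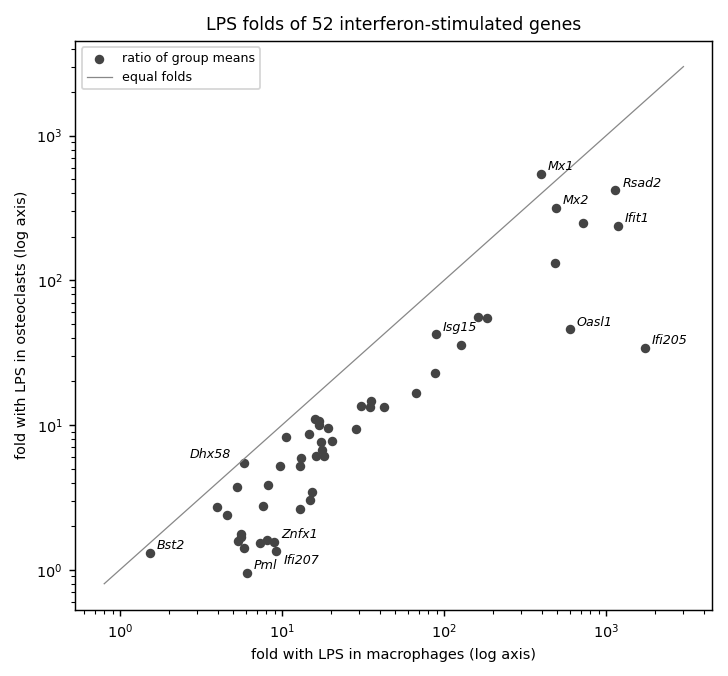
Ratio of group mean FPKM with LPS to without LPS in macrophages (x, log axis) and osteoclasts (y, log axis) for the 52 genes with both folds, 3 libraries per group. In these FPKM values all but Mx1 lie under the line of equal folds (after rescaling to TPM, Dhx58, Bst2, Rtp4, Oas3, Oasl2 and Sp100 do not either), and Pml, at 0.949 in osteoclasts, lies lowest.

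The genes kept much of their order of response between the cell types. Across the 54 genes, the log2 LPS differences had a Pearson r of 0.93 and a Spearman rho of 0.88, a description over genes that share libraries and are not independent. On the log2(FPKM + 1) scale Rsad2, Ifit1, Cmpk2 and Ifit2 had the 4 highest differences in osteoclasts. As ratios of group means the order there was led by Mx1 (543), Rsad2 (420.1) and Mx2 (317), of which Mx1 and Mx2 rest on 10 and 4 untreated reads.

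The starting levels were compared between the untreated groups. Without LPS, 46 of the 54 genes were lower in osteoclasts (39.0% of all genes tested were), 3 were higher (38.8% of all genes were) and 5 were not called. The genes called higher were Pml (0.84 ± 0.06, log2 difference and SE, limma adjusted p = 4.13e-08), Znfx1 (0.43) and Tor3a (0.40), and the last pair lost the call after rescaling to TPM, at 0.028 and 0.0086. The genes that were not called were Ifi44, Oasl1, Ifi205, Ifi207 and Slfn1. Leaving out Slfn1 and Ms4a4c, the median level in osteoclasts was 17.6% of that in macrophages, from 2.46% for Mx1 to 192% for Pml. In untreated osteoclasts 24 of the 54 were under 1 FPKM in every library, and in all 6 untreated libraries Herc6, Isg20, Mx2, Ifi205, Slfn1 and Ifi44 were.

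With LPS, all 54 genes were lower in osteoclasts than in macrophages, where 43.0% of all genes tested were, and no library of the groups overlapped for any of them, as for 42.9% of all genes. Slfn1 and Ifi44 entered the test only through LPS-treated macrophages and had to differ here, and of the 48 genes at 1 FPKM or more in an untreated library 48 were lower. The median log2 difference was -3.46, from -4.96 for Ifi203 to -1.65 for Pml. Osteoclast levels with LPS were 2.76% (Slfn1) to 30.0% of the macrophage levels with a median of 7.60%, and 16 genes were under 5%, 39 under 10% and 4 over 20%. Those over 20% were Pml (30.0%), Tor3a (28.1%), Trim25 (26.5%) and Znfx1 (23.9%). Summed over the 54 genes, the level with LPS was between 18092 and 20063 FPKM in macrophages and between 1013 and 1554 FPKM in osteoclasts, and without LPS between 821 and 863 and between 309 and 316 FPKM.

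A set of 13 genes, picked after the values were seen, stood in untreated osteoclasts at 50% or more of the macrophage level: Trim25, Oasl1, Ifi205, Ifi207, Eif2ak2, Adar, Znfx1, Parp12, Pml, Slfn2, Samd9l, Ifi35 and Tor3a. Their median LPS fold was 8.12 in macrophages and 1.61 in osteoclasts, and 10 of the 13 had an osteoclast fold under 3, as did 4 of 39 others. The 39 others, without Slfn1 and Ms4a4c, had a median fold of 18.2 in macrophages and 9.61 in osteoclasts. Voom called the interaction below 0 for all 13 of the first set and for 24 of the 39, where it did so for 28.4% of all genes. The split is by a level that enters the osteoclast fold, so it describes the genes and supports nothing by itself.

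**Figure D3:**
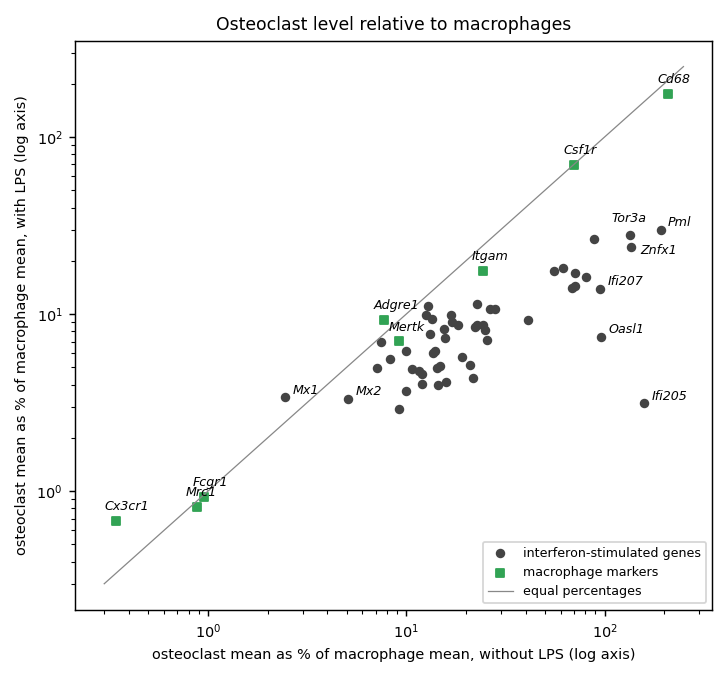
Osteoclast group mean as a percentage of the macrophage group mean without LPS (x, log axis) and with LPS (y, log axis) for 52 of the 54 genes (circles; Slfn1 and Ms4a4c have too few untreated osteoclast reads to place) and 8 macrophage markers (squares). In these FPKM values all circles but Mx1 lie under the line of equal percentages. After rescaling to TPM, Dhx58, Bst2, Rtp4, Oas3, Oasl2 and Sp100 do not lie under it either. Pml is highest among the circles on both axes.

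The LPS-treated osteoclast libraries differed among themselves for these genes more than for most genes. Replicate 2 was the lowest of the 3 for 48 of the 54 genes, against 33.4% of all genes tested, and replicate 3 was the highest for 50, against 27.7% of all genes. Replicate 2 stood at a median of 65.8% of the mean of the other 2, from 37.1% to 103.2%. The median coefficient of variation over the 54 was 26.6%, beside 7.95% over all genes. Macrophage markers had a like spread, with replicate 2 lowest for 6 of 8 and at a median of 64.2% of the others, while the 10 osteoclast markers had a median of 107.2% and replicate 2 lowest for 3. By sum, the 8 macrophage markers went the other way, at 1726, 1803 and 1702 FPKM in LPS-treated osteoclast replicates 1, 2 and 3. In osteoclasts with LPS, 2 of the 8 macrophage markers were called higher, where 11.1% of all genes tested were called higher and 6.59% lower. The other 6 markers were not called, and of these Csf1r, Cd68, Itgam, Cx3cr1 and Mertk were below 0 and Mrc1 above. Those called were Adgre1 and Fcgr1. Adgre1 was at 37.0, 31.2 and 31.3 FPKM in untreated osteoclasts and 73.1, 42.5 and 70.9 FPKM with LPS, and at 673, 665 and 671 FPKM in LPS-treated macrophages. Fcgr1 was at 0.398, 0.366 and 0.523 FPKM in untreated osteoclasts, 1.68, 0.927 and 1.88 FPKM in LPS-treated osteoclasts and 162, 149.8 and 170.3 FPKM in LPS-treated macrophages. Over the 8 markers the level in LPS-treated osteoclasts was 0.679% to 175.5% of that in LPS-treated macrophages, with a median of 8.15%, and Mrc1, Cx3cr1 and Fcgr1 were each under 1%. The part of residual macrophages in the osteoclast values was not tested. Without replicate 2, 53 of the 54 genes were called higher with LPS in osteoclasts, where 11.4% of all genes were, and the median log2 difference was 2.01.

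**Figure D4:**
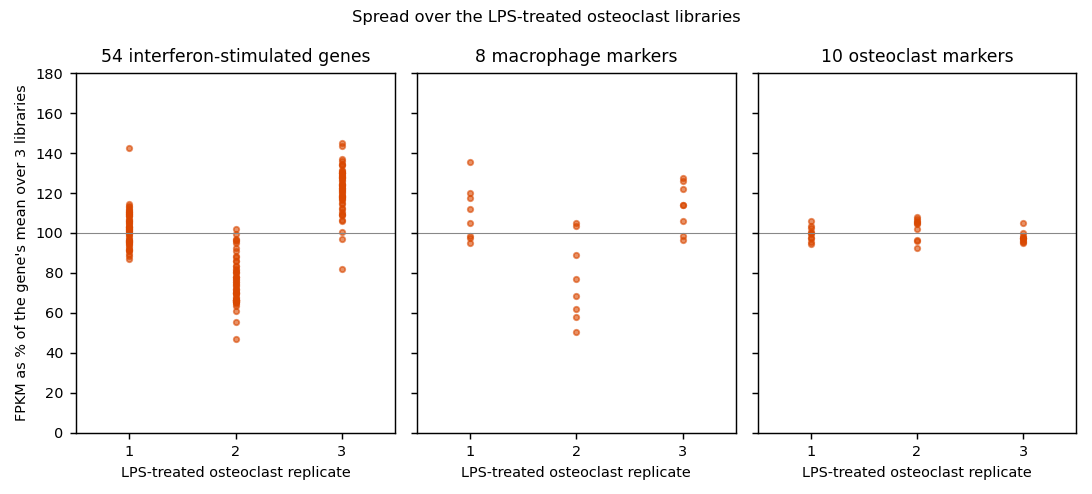
FPKM in each LPS-treated osteoclast library as a percentage of the gene's mean over the 3 libraries, for the 54 genes, 8 macrophage markers and 10 osteoclast markers, 1 point per gene and library. Replicate 2 is below 100% for nearly all of the 54 genes and around 100% for the osteoclast markers.

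The LPS-treated macrophage libraries lay closer together, with a median coefficient of variation of 6.46% over the 54 genes and 7.02% over all genes. Replicate 2 was also the lowest there for 53 of the 54, against 34.3% of all genes, at a median of 89.9% of the mean of the other 2.

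The other genes of the interferon pathway were taken from a list of 25, of which 22 passed the filter, and Ifna2, Ifna4 and Ifna5 did not. In macrophages LPS raised 17 of the 22 and lowered 2, where it raised 36.8% and lowered 33.1% of all genes tested. In osteoclasts it raised 11 and lowered 1, where it raised 11.1% and lowered 6.59% of all genes. The genes raised include Ifnb1 and Socs1, which were under 1 FPKM in every untreated library and had to differ with LPS. The ligand Ifnb1 was at 0 in all 6 untreated libraries, at 54, 72.6 and 54.1 FPKM in LPS-treated macrophages and at 0.539, 0.865 and 0.950 FPKM in LPS-treated osteoclasts. Ifnb1 reached 1 FPKM in LPS-treated macrophages alone, so it entered the test only through that group and had to differ in it. Receptor chains were lower in osteoclasts: Ifnar1 stood at 43.5, 46.6 and 44.8 FPKM in untreated macrophages and 17.8, 17.4 and 17.4 FPKM in untreated osteoclasts. With LPS, Ifnar1 was at 93.0, 92.1 and 95.5 FPKM in macrophages, a rise, and at 16.1, 16.4 and 16.3 FPKM in osteoclasts, where the difference was not called (limma adjusted p = 0.0655).

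Of the transcription factors Stat2 and Irf9, Stat2 had an interaction called below 0 and Irf9 did not. Stat2 went from 8.66, 9.39 and 8.60 FPKM to 80.1, 67.8 and 76.2 FPKM in macrophages and from 1.74, 1.86 and 1.51 FPKM to 5.61, 4.30 and 6.66 FPKM in osteoclasts, an interaction of -1.68 ± 0.16 (SE, limma adjusted p = 2.48e-06). Irf9 rose in both, from 8.18, 8.24 and 8.13 FPKM to 29.3, 29.4 and 28.5 FPKM in macrophages and from 1.68, 1.94 and 1.58 FPKM to 6.16, 6.97 and 7.81 FPKM in osteoclasts, with an interaction of -0.17 ± 0.10 (SE, limma adjusted p = 0.172). As a ratio of group means, its fold was slightly larger in osteoclasts, so the direction depends on the scale. Replicate 2 was not the lowest LPS-treated osteoclast library for Irf9, unlike for most of the 54 genes. The feedback inhibitor Socs1 went from 0.223, 0.102 and 0.216 FPKM to 187, 178 and 199 FPKM in macrophages and from 0.335, 0.265 and 0.243 FPKM to 6.10, 4.08 and 6.39 FPKM in osteoclasts. Socs1 was under 1 FPKM in every untreated library, so it passed the filter only through LPS-treated ones and had to differ with LPS. Over the list the interaction was called below 0 for 16 of 22 genes and above 0 for Ptpn6 (0.39), a phosphatase that dampens signalling, where 30.0% of all genes tested were called below 0 and 26.6% above. The 16 include Ifnb1 and Socs1, which passed the filter only through LPS-treated libraries.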

How the data were processed

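RNA was sequenced in 12 libraries, 3 in each of 4 groups. The authors deposited 1 table of FPKM values for 54532 genes by Ensembl identifier, with no counts. Per the submitters' processing notes, fastp, STAR, featureCounts and DESeq2 were used with build mm10, and the annotation, the versions and the use of strand are not given in the sources used here. Whole reads were recovered from the steps of the FPKM values for 99.8% of the 25854 genes above 0 (within 0.02 of a whole number in every library, 96.7% with the merged exon length of GENCODE M21). Their totals, between 15279775 and 19790304 per library, set the depth. The scaling behind the FPKM values lay within 0.117% of size factors of the median-of-ratios kind, so a change is relative to the typical gene.

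Genes at 1 FPKM or more in at least 3 libraries were kept (11335). Log2(FPKM + 1) was fitted with limma 3.58.1 in R 4.3.3, with 4 group means, a variance trend and Benjamini-Hochberg adjustment over all 11335 genes, and a gene was called at an adjusted p under 0.05. Fold changes on this scale understate low genes, so ratios of group mean FPKM stand beside them. No fold was formed where every library of a group had 3 reads or fewer, a floor that covers counting error only. Symbols were matched to identifiers for 54409 genes. Values in every library are given for the 2 genes of each role with the highest mean FPKM, the 5 with the lowest and 5 with the highest called interaction, those not called with LPS, and those called against the direction of most. The 54 genes and all lists were chosen with earlier results of these data known. Promoters came from RefSeq, and words of 75 bases from the GENCODE transcripts were compared between genes. Alternatives were limma-voom on recovered reads, a pseudocount of 0.1, a filter at a mean of 5 FPKM, no filter, TPM rescaling, quantile normalization, no variance trend, only the groups compared, a replicate block and leaving out each library. The fit was tested on simulated data with the same spread in every group and 200 of 10707 genes changed. It made somewhat more false calls there than its threshold allows. The LPS-treated osteoclast libraries differed more among themselves than those of the other groups, so this rate may not hold for their comparisons.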

Additional observations from a re-analysis of the deposited data

Results flagged for a closer look

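The effect of LPS differed between the cell types for 53 of the 54 genes by the interaction test, with each of the 53 below 0, where 30.0% of all genes were called below 0 and 26.6% above, so that the rise on the log2(FPKM + 1) scale was smaller in osteoclasts. The 53 include Herc6, Isg20, Mx2, Ifi205, Slfn1 and Ifi44, which were under 1 FPKM in all untreated libraries and passed the filter only through LPS-treated ones, and without them it was 47 of 48. The lowest values were those of Ifi205 (-4.76), Mx2 (-4.27), Oasl1 (-3.74), Ifit1 (-3.40) and Ifit3b (-3.35). The highest called values were those of Sp100 (-1.08), Oas1a (-1.05), Oas3 (-1.05), Dhx58 (-0.93) and Rtp4 (-0.71). Voom on the recovered reads did not call Mx2 (-0.22), Ifit3b (-1.70, adjusted p = 0.0675), Sp100 (-0.57), Oas3 (-0.50), Dhx58 (-0.15) or Rtp4 (-0.35). It called Ifi205 (-6.05), Oasl1 (-3.72), Ifit1 (-2.31) and Oas1a (-0.91). For Mx2 the values move with the reads in untreated osteoclasts, which were 4 over 3 libraries.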

How the results depend on the processing

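The counts of genes called higher with LPS (54 in macrophages, 52 in osteoclasts), lower in osteoclasts (46 without LPS, 54 with it) and below 0 in the interaction (53) stayed within 1.5 times of themselves under all alternatives run. With each library left out in turn they were 54 to 54, 50 to 53, 46 to 46, 54 to 54 and 53 to 53. The interaction count was lowest, 38, with voom on recovered reads, and was 50 with a pseudocount of 0.1 and 47 after rescaling to TPM. Over all genes, interactions called in either direction were 6062 of 11291 with voom. Of 11335 genes they were 6191 with that pseudocount, 8747 after TPM and 6413 without these changes. Deviations from the group means correlated weakly between libraries with the same replicate number (18 correlations, -0.070 to 0.10, 1 of them over 0.1). Whether the libraries were paired cannot be told from this, and with a replicate block the counts were 54, 52, 46, 54 and 53. Over single genes, 5544 values kept direction and side of the threshold, 35 lost the call, 12 gained it and 10 changed sign. Those that changed sign were Bst2 with LPS in macrophages (-0.040 after TPM, -0.22 after quantile normalization), Oasl1 without LPS (0.16 after quantile normalization, and -0.11 to 0.053 with single libraries left out, above 0 without untreated macrophage replicate 3 (0.021) or untreated osteoclast replicate 1) and 5 interactions. The interactions were Mx1 with voom (0.40), Dhx58 (0.035), Rtp4 (0.076) and Bst2 (0.34) after TPM, and Bst2 after quantile normalization (0.51). The cause was not tested. TPM rescaling moved the median of all genes to 0.51 in the interaction, to -0.38 between cell types without LPS and to 0.12 with it. Depth limits the folds of Slfn1, Ms4a4c, Mx1 and Mx2, which had 10 reads or fewer in untreated osteoclasts.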
